A study of Mus musculus with 4 samples.

Results

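The genes described here are 35 interferon-stimulated genes, taken by symbol from the 27998 genes that 4 single-cell RNA libraries of mouse mammary cells have in common. All 35 were found. They were split into 24 members that are mainly induced by type I interferon (type I-type) and 11 that are strongly induced by interferon gamma (gamma-type). The female mice, of mixed genetic background, carried Trp53 L/L, Brca1 L/L and R26Y, which are loxP-flanked copies of both tumour suppressor genes and a Cre-activated YFP at Rosa26. All 4 libraries come from glands injected intraductally with Ad-K8-Cre, an adenovirus whose Cre is driven by the luminal keratin 8 promoter. The 2 weeks library holds sorted YFP+ cells from about 2 weeks after injection, and the 5 months library holds sorted YFP+ cells together with sorted CD45+ leukocytes from about 5 months after injection. The tumour 1 and tumour 2 libraries hold live, DAPI-negative cells of a mammary tumour mass each. The labels give neither the age of the mice nor the number of mice pooled in a library, no library of mice without Cre is among the 4, and only the tumours are replicates (n = 2).

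Interferons are secreted antiviral and immune proteins. Type I interferons (interferon alpha and beta) signal through IFNAR1 and IFNAR2 and the kinases JAK1 and TYK2 and act on genes through the interferon-stimulated response element (ISRE). Interferon gamma, made mostly by T and NK cells, signals through IFNGR1 and IFNGR2 and acts through gamma-activated sites (GAS) to induce the factor IRF1, guanylate-binding proteins (Gbp genes) and immunity-related GTPases (Iigp1, Irgm1, Igtp). Many genes answer to both signals, so the split names the stronger inducer and not an exclusive one.

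Promoter stretches are shown for 4 members of each type that hold an interferon response motif in the 250 bases before the transcription start, since these motifs are the elements named above. RefSeq promoter sequences (GRCm38.p6) were available for 27 of the 35 members and for 27025 genes in all. On either strand, the ISRE letters (GAAA, any 2 bases, GAAA) were found before 7 of 18 type I-type members and 6 of 9 gamma-type members, against 3.46% of all genes. The GAS letters TTCNNNGAA were found before 3 of 18 and 3 of 9, against 8.13% of all genes. Capitals mark the motif letters, which on the reverse strand read TTTC, 2 bases, TTTC for the ISRE. Gbp2 and Gbp3 are shown as 30 bases.
Isg15, chr4:156200855-156200916, minus strand: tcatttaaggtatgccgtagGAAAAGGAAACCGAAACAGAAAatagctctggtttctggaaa
Ifit1, chr19:34640765-34640833, plus strand: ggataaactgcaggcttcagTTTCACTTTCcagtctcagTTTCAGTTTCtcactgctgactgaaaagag
Rsad2, chr12:26456543-26456592, minus strand: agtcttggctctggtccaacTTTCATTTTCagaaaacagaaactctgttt
Bst2, chr8:71537567-71537628, minus strand: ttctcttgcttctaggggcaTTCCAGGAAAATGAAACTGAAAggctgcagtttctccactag
Gbp2, chr3:142620594-142620623, plus strand: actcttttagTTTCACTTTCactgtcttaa
Gbp3, chr3:142559992-142560021, plus strand: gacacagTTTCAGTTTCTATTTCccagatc
Igtp, chr11:58199491-58199551, plus strand: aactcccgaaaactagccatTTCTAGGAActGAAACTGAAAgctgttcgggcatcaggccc
Irf1, chr11:53769904-53769952, plus strand: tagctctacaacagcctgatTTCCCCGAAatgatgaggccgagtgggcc
Isg15 held 3 overlapping ISRE matches, Bst2 held 2 with a GAS match that overlapped the first, and Igtp held 1 of each side by side. Irf1 held a GAS match alone. A match of letters describes the sequence and was not tested for binding.

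Cell barcodes were placed in 3 classes by marker counts. Keratin barcodes had at least 3 UMIs (unique molecular identifiers, counted RNA molecules) of Krt8 and Krt18 together and none of the leukocyte gene Ptprc. Tyrobp barcodes had at least 3 UMIs of Tyrobp, a signalling adaptor of myeloid and NK cells, and Cd3e barcodes had at least 1 UMI of Cd3e, a part of the T cell receptor complex. In the order 2 weeks, 5 months, tumour 1 and tumour 2, there were 1235, 503, 441 and 421 keratin barcodes, 5, 813, 2051 and 808 Tyrobp barcodes, and 3, 1441, 24 and 137 Cd3e barcodes. The leukocyte classes of the 2 weeks library, which was sorted for YFP alone, were too small to use, and the 24 Cd3e barcodes of tumour 1 were below the 30 required for a test.

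The class labels were checked against marker genes. All 7 luminal markers (Epcam, Krt7, Krt19, Cdh1 and 3 claudins) were detected in the keratin barcodes of every library, but their summed level was 1650 CPM (UMIs of a gene, scaled to 1000000 UMIs of the class) in tumour 1 against 4322 in tumour 2, 6588 at 2 weeks and 6587 at 5 months. Epcam alone had 302 CPM in tumour 1, the lowest of the 4 libraries. The 7 macrophage and monocyte markers summed to between 8692 and 18328 CPM in Tyrobp barcodes of the 5 months and tumour libraries. The 5 T cell markers present in the files summed to between 1304 and 1869 in Cd3e barcodes. Classes overlapped: 74 keratin barcodes of tumour 1 and 39 of tumour 2 were also Tyrobp barcodes, and 105 Cd3e barcodes at 5 months were also Tyrobp barcodes. Median UMIs per keratin barcode ran from 3942 at 2 weeks to 14000 in tumour 1. Between 2 and 16 barcode sequences were shared by any pair of libraries, which hold 1453 to 4836 barcodes each.

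In keratin barcodes, gamma-type members were far more abundant at 2 weeks than in any later library. They made up 0.249% of all UMIs of the class at 2 weeks (95% Poisson interval 0.244% to 0.253%), 0.0373% at 5 months, 0.0266% in tumour 1 and 0.0128% in tumour 2. The share at 2 weeks was thus 6.66 times that at 5 months, 9.34 times that of tumour 1 and 19.5 times that of tumour 2. Type I-type members differed less between libraries and in another order, with 0.365% at 2 weeks, 0.142% at 5 months, 0.257% in tumour 1 and 0.138% in tumour 2. A large portion of that sum was Ifitm3, a membrane protein that blocks virus entry, which supplied 64.5%, 37.6%, 50.1% and 64.0% of it. Without Ifitm3 the type I-type share was 0.129%, 0.0885%, 0.128% and 0.0497%, so that 2 weeks and tumour 1 lay side by side. Intervals on shares and levels cover counting error only.

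**Figure D1:**
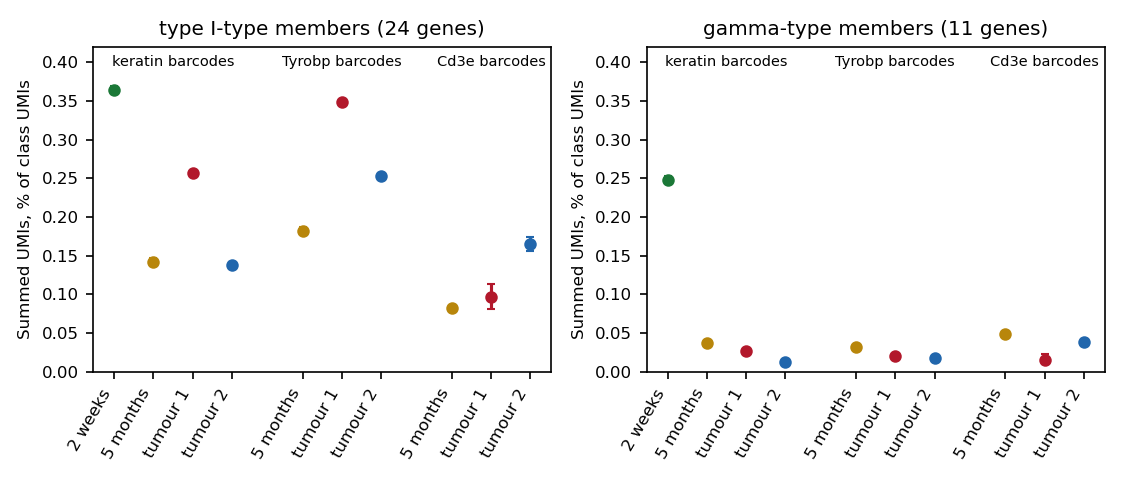
Summed UMIs of the type I-type members (left) and gamma-type members (right) as a percentage of all UMIs of the class, for each class and library; points are single libraries and bars are 95% Poisson intervals, mostly smaller than the points. The gamma-type share of keratin barcodes was 0.249% at 2 weeks and at most 0.0494% in every other class and library plotted, while the type I-type share was highest in keratin barcodes at 2 weeks and in Tyrobp barcodes of tumour 1.

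A few genes made up most of the gamma-type sum. In these summed counts, fewer barcodes with a gene and less RNA of it per barcode cannot be told apart. Ubd, which encodes the ubiquitin-like protein FAT10, had 936 CPM at 2 weeks, 68.0 at 5 months, 34.2 in tumour 1 and 8.99 in tumour 2. Gbp2, a guanylate-binding protein that acts on intracellular pathogens, had 620.1 CPM at 2 weeks, 52.0 at 5 months, 46.9 in tumour 1 and 16.2 in tumour 2. Iigp1, an immunity-related GTPase, had 413, 63.0, 32.0 and 5.39 in the same order. For these 3 genes, which together made up most of the sum at 2 weeks, every later library was lower and tumour 2 was the lowest.

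The other GTPases followed. Igtp (also known as Irgm3) had 128, 30.8, 17.3 and 7.19 CPM, Ifi47 had 86.4, 22.4, 16.1 and 10.8, and Gbp3 had 89.6, 19.4, 38.6 and 13.1. In Gbp3 tumour 1 stood above 5 months, unlike in the genes before it. Gbp8 had 188 UMIs at 2 weeks (34.1 CPM), 1 at 5 months and none in either tumour, which makes it at least 123-fold higher at 2 weeks than in the tumours when 3 counts over both tumours are taken as the floor. The feedback inhibitor Socs1 and the factor Irf1 did not share the pattern: Socs1 had 19.96, 27.9, 19.0 and 29.8 CPM, and Irf1 had 40.6, 56.6, 22.9 and 17.2, with its highest level at 5 months. Socs1 was below its 2 weeks level in tumour 1 alone, by a small margin, while Irf1 was below it in both tumours.

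**Figure D2:**
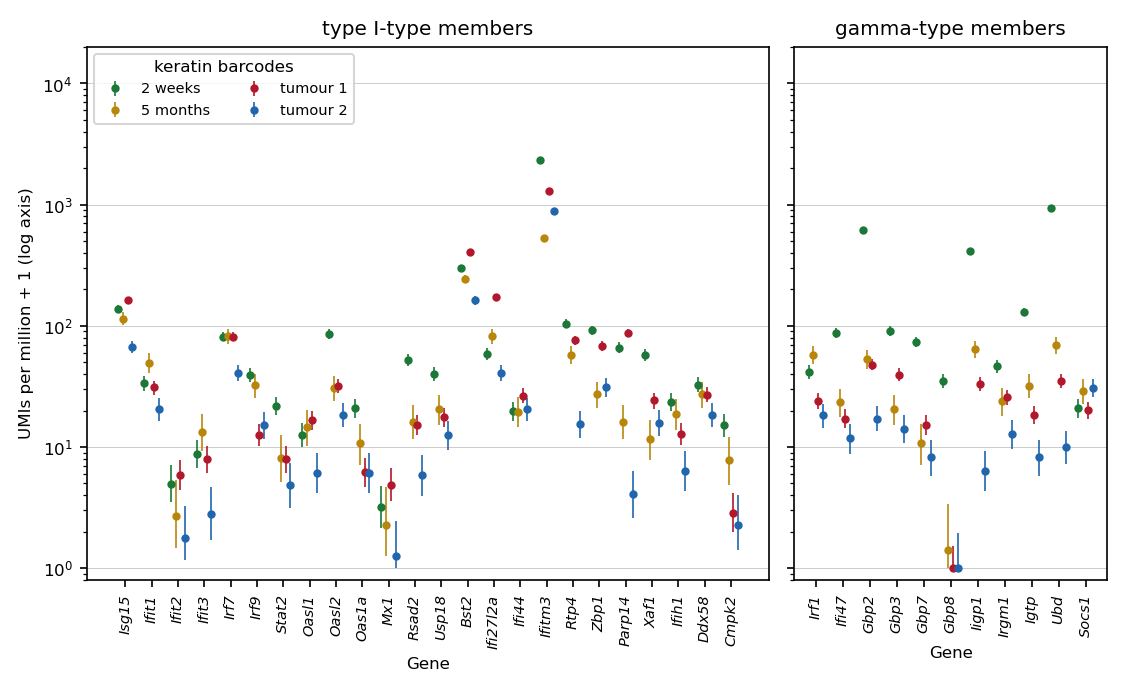
Level of each of the 35 members in keratin barcodes, as CPM plus 1 on a log axis, by library; bars are 95% Poisson intervals and hold counting error only. Green points (2 weeks) stand well above the rest for most gamma-type members, with Ubd at 936 CPM, while most type I-type members spread less between libraries.

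The type I-type members of keratin barcodes varied between libraries gene by gene. Ifitm3 had 2354 CPM at 2 weeks, 534 at 5 months, 1286 in tumour 1 and 882 in tumour 2, the highest level of any member in any class. Bst2 (tetherin, which holds budding virus at the cell surface) had 302, 242, 407 and 161 CPM. Isg15, a ubiquitin-like modifier and one of the most strongly induced genes of the response, had 138, 114, 161 and 66.0. Bst2 and Isg15 were highest in tumour 1 and lowest in tumour 2, with both premalignant libraries between the tumours.

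Ifi27l2a, a mitochondrial protein of the response, had 57.5 CPM at 2 weeks, 80.7 at 5 months, 171 in tumour 1 and 39.8 in tumour 2. Rtp4, a transmembrane protein that can restrain the response, had 103, 56.2, 75.0 and 14.4, and Zbp1, a sensor of Z-form nucleic acid, had 91.1, 26.2, 67.2 and 30.04. Rsad2 (viperin), in contrast to these, followed the gamma-type order with 51.5, 15.2, 14.1 and 4.88. The same order was found for Stat2, Usp18, Oas1a, Ifih1, Ddx58 and Cmpk2, and the remaining type I-type members did not have it. Leukocyte markers also differed between these keratin barcodes. The 7 macrophage and monocyte markers summed to 5.99 CPM at 2 weeks (Adgre1 at 0), 92.1 at 5 months, 436 in tumour 1 and 208 in tumour 2. The 4 neutrophil markers summed to 0.363 (S100a9, Csf3r and Retnlg at 0), 115 (Csf3r at 0), 228 and 1890.5. A separate list of 4 monocyte markers (Ly6c2, Ccr2, Plac8 and Chil3) was instead highest at 2 weeks. It summed to 854 (Ccr2 and Chil3 at 0), 83.2, 8.07 (Chil3 at 0) and 58.3. Ifi27l2a had 193 CPM in the 367 keratin barcodes of tumour 1 with fewer than 3 Tyrobp UMIs. The part of leukocyte RNA in the keratin levels was not tested.

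The 5 months and 2 weeks libraries could only be set side by side, with 1 library each and therefore no test. A member counted as different when its scaled level (CPM with TMM library factors) differed by 2-fold or more once 1 CPM was added and reached 20 CPM in the higher library. Of 27 members that reached 20 CPM, 14 were lower at 5 months and 0 were higher, where 14.3% of all 5838 such genes were lower and 14.9% higher (29.2% in all). The lower members were 8 of 11 gamma-type and 6 of 16 type I-type. The median log2 ratio was -2.04 for gamma-type members and -0.48 for type I-type members, beside -0.08 for all genes at that level.

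The makeup of the keratin class differed between these libraries, as a split made after the data were seen shows. By summed luminal progenitor and milk genes against hormone-sensing luminal genes, 1029 keratin barcodes leaned to the hormone-sensing side at 2 weeks and 160 to the progenitor side, while at 5 months 46 and 444 did. Milk protein genes took 7.89% of keratin UMIs at 5 months and 0.143% at 2 weeks. At 2 weeks the gamma-type share was 0.473% in progenitor-leaning and 0.197% in hormone-leaning barcodes, a ratio of 2.40. At 5 months it was 0.0376% and 0.0263%. The 2 weeks level was therefore 12.6 times the 5 months level among progenitor-leaning barcodes and 7.48 times among hormone-leaning barcodes, larger in both subsets than the 6.66 over the whole class. With milk genes left out of the total, the 5 months share was 0.0405%. Within the progenitor-leaning barcodes, 20 of 31 members were lower at 5 months and 0 higher, beside 9.45% and 15.5% of genes.

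Counts per barcode showed that many keratin barcodes contributed. After each barcode was thinned at random to 1500 UMIs, which left out 123 shallower keratin barcodes at 2 weeks, 10 at 5 months and none in the tumours, 433 of 1112 barcodes at 2 weeks (38.9%, exact binomial 95% interval from 36.1%) had 3 or more gamma-type UMIs. The share was 5.07% at 5 months, 2.04% in tumour 1 and 0.713% in tumour 2. Without thinning it was 56.1%, 18.3%, 42.4% and 13.8%. For type I-type members other than Ifitm3 the thinned shares were 25.4%, 15.6%, 28.1% and 10.7%. At 2 weeks the median barcode had 1 gamma-type UMI and the highest had 48, so levels were uneven between barcodes.

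Both kinds of member were often found in the same barcodes at 2 weeks. There, 198 thinned keratin barcodes had 3 or more UMIs of gamma-type members and of type I-type members without Ifitm3. They were 70.2% of the 282 barcodes high in type I-type members and 45.7% of the 433 high in gamma-type members. At 5 months the overlap was 14 barcodes, 18.2% of the 77 high in type I-type members and 56.0% of the 25 high in gamma-type members. In tumour 1 it was 7 barcodes, 5.65% of 124 and 77.8% of 9, and in tumour 2 it was 2 barcodes, 4.44% of 45 and 66.7% of 3. Few barcodes outside 2 weeks were high in gamma-type members, and most of those few were high in type I-type members too. Pearson's r between both sums across thinned barcodes was 0.44 at 2 weeks (1112 barcodes), 0.35 at 5 months (493), 0.41 in tumour 1 (441) and 0.28 in tumour 2 (421), given as a description of barcodes that share a library.

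**Figure D3:**
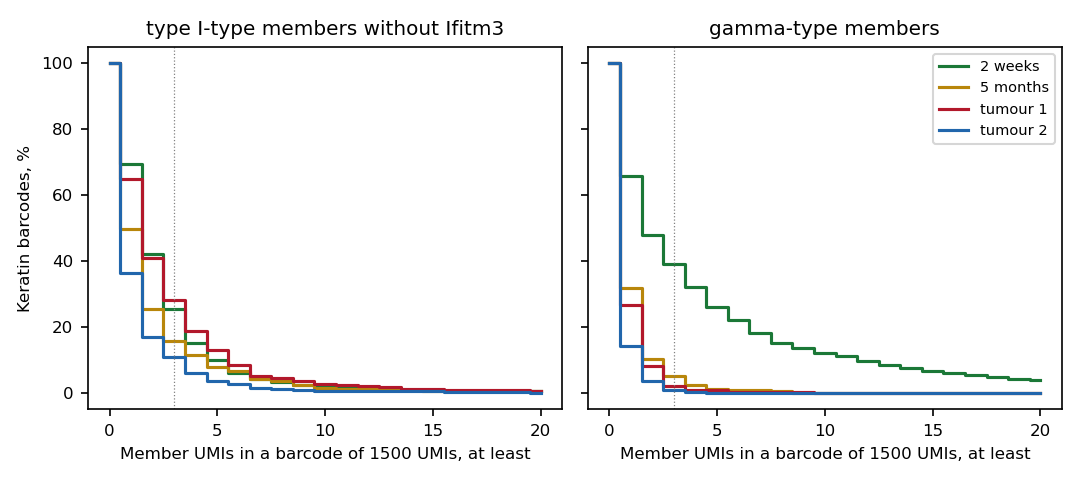
Percentage of keratin barcodes (vertical axis) with at least the given number of member UMIs (horizontal axis) after thinning to 1500 UMIs, by library, for type I-type members without Ifitm3 (left) and gamma-type members (right); the dotted line marks 3 UMIs. The 2 weeks curve stands apart for gamma-type members, with 38.9% of barcodes at 3 or more, while for type I-type members the 2 weeks and tumour 1 curves run close together.

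The tumours were tested against 2 weeks in keratin barcodes with edgeR, which here takes its error from the spread between the tumours and assumes that the single 2 weeks library varies as they do. Of the 35 members, 2 were lower in the tumours at an adjusted p under 0.05 and 0 were higher, where 0.54% of 12416 genes were lower and 0.54% higher (1.08% in all). They were Ubd (log2 fold change -5.30, SE 0.83, edgeR adjusted p = 0.0454, lower in 2 of 2 tumours) and Gbp8 (edgeR adjusted p = 0.0307, with no count in 2 of 2 tumours). Gbp8 passed the filter on low counts only through the 2 weeks library, so its call adds nothing to its values. Gbp2 (-4.17, SE 0.72, adjusted p = 0.0554) and Igtp (-3.26, SE 0.64, adjusted p = 0.0737) missed the threshold. The median log2 fold change was -2.64 for the 11 gamma-type members and -0.73 for the 24 type I-type members, beside 0.04 for all genes. Both calls were lost with RLE size factors and with a filter of 500 genes and 10% mitochondrial UMIs per barcode, with 0 members called in each, where 0.379% and 0% of genes were called. With library size scaling alone 9 members were called, all lower, where 2.09% of genes were lower and 3.53% higher. With no filter on low counts 9 were called, all lower, where 2.31% were lower and 4.70% higher.

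Set side by side, tumour 1 had 13 members at least 2-fold below 2 weeks and 1 above, of 28, and tumour 2 had 21 below and 0 above, of 27. Over all genes 13.5% were below and 19.2% above in tumour 1, and 15.9% below and 15.5% above in tumour 2. Against 5 months, edgeR called 0 of 35 members in keratin barcodes, where 0.137% of genes were called. At an unadjusted p under 0.05, 3 members were lower and 0 higher, where 4.80% and 4.04% of genes were, and DESeq2 called 0. By the 2-fold rule tumour 1 had 6 members above 5 months and 2 below, of 23, where 16.3% of genes were above and 11.4% below (27.6% in all). Tumour 2 had 0 above and 11 below, of 19, where 9.98% were above and 10.1% below (20.1% in all). The same counts were made among the 46 hormone-leaning barcodes at 5 months and the 15 and 18 of the tumours. Tumour 1 had 11 above and 2 below, of 25, where 24% and 25.5% of genes were (49.5% in all). Tumour 2 had 0 above and 6 below, of 14, where 21.8% and 22.8% were (44.5% in all). In either direction, 13 of 25 and 6 of 14 members were thus near the share of all genes. The tumours themselves differed: in tumour 2, 12 of 20 members were at least 2-fold lower than in tumour 1 and 0 higher, where 12% of genes were lower and 7.28% higher (19.3% in all). Among them were 7 of 13 type I-type and 5 of 7 gamma-type members. Parp14 had 85.9 CPM in tumour 1 and 3.08 in tumour 2, the widest gap of the abundant members. These comparisons share libraries, so their counts are not independent.

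In Tyrobp barcodes the summed type I-type share was higher in both tumours than at 5 months, and the summed gamma-type share was lower. For single members, edgeR called none of the 35. Type I-type members made up 0.182% of UMIs at 5 months, 0.348% in tumour 1 and 0.253% in tumour 2 (tumours 0.301% ± 0.0673, SD, n = 2). Gamma-type members made up 0.0325%, 0.0203% and 0.0174% (tumours 0.0189% ± 0.00200, SD, n = 2).

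Among the effectors, Ifi27l2a stood at 332 CPM in the 5 months library, 1136 in tumour 1 and 490.2 in tumour 2. Isg15 had 65.2, 201 and 181, and Rsad2 had 33.2, 87.9 and 116. For Isg15 and Rsad2 the tumours lay close together and above 5 months, whereas Ifi27l2a differed more than 2-fold between the tumours. Parp14, a mono-ADP-ribosyltransferase, had 26.7, 165 and 34.7, so only tumour 1 stood out. Oasl1 and Oasl2, relatives of the 2',5'-oligoadenylate synthetases, had 12.1, 46.3 and 52.4 and 11.3, 42.8 and 47.5 CPM. Ifi44 had 2.07, 22.5 and 20.3, the widest gap between 5 months and both tumours. Bst2 had 383.5, 397 and 269.5, and Ifitm3 had 744, 851 and 901, without the gap seen for Isg15.

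Irf7, the factor that amplifies type I interferon production, stood at 54.2 CPM in the 5 months library, 151 in tumour 1 and 139 in tumour 2. The gamma-type members that went the other way were Irf1, with 81.1, 19.2 and 21.9, Socs1, with 62.5, 10.1 and 20.7, Igtp, with 33.2, 14.2 and 11.7, and Ifi47, with 33.2, 18.4 and 15.1. Irgm1, an autophagy-linked GTPase, had 38.2, 38.2 and 23.7, and Gbp2 had 33.2, 33.0 and 36.8, so not every gamma-type member was lower.

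With 1 library at 5 months and 2 tumours, edgeR called 0 of 35 members in Tyrobp barcodes and 0% of 11939 genes. At an unadjusted p under 0.05, 11 members were higher (10 type I-type and Gbp7) and 4 lower (Irf1, Socs1, Igtp and Ifi47), where 6.04% of genes were higher and 5.62% lower. The largest of the former was Ifi44 (log2 fold change 3.24, SE 0.50, edgeR adjusted p = 0.274), and the largest of the latter was Socs1 (-2.16, SE 0.52, adjusted p = 0.324). The median log2 fold change was 1.27 for type I-type and -0.36 for gamma-type members, beside 0.06 for all genes. DESeq2 called 2 members, 1 in each direction, where it called 2.32% of genes. Without the filter on low counts edgeR called 13, 10 higher and 3 lower, where 3.51% of genes were higher and 2.98% lower. By the 2-fold rule tumour 1 had 12 members above 5 months and 3 below, of 22, and tumour 2 had 7 above and 4 below, of 20. Over all genes 11.2% were above and 10.9% below in tumour 1, and 8.28% above and 9.42% below in tumour 2. Set against each other, tumour 2 had 4 members below tumour 1 and 0 above, of 20, all type I-type, beside 6.02% and 5.73% of genes.

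**Figure D4:**
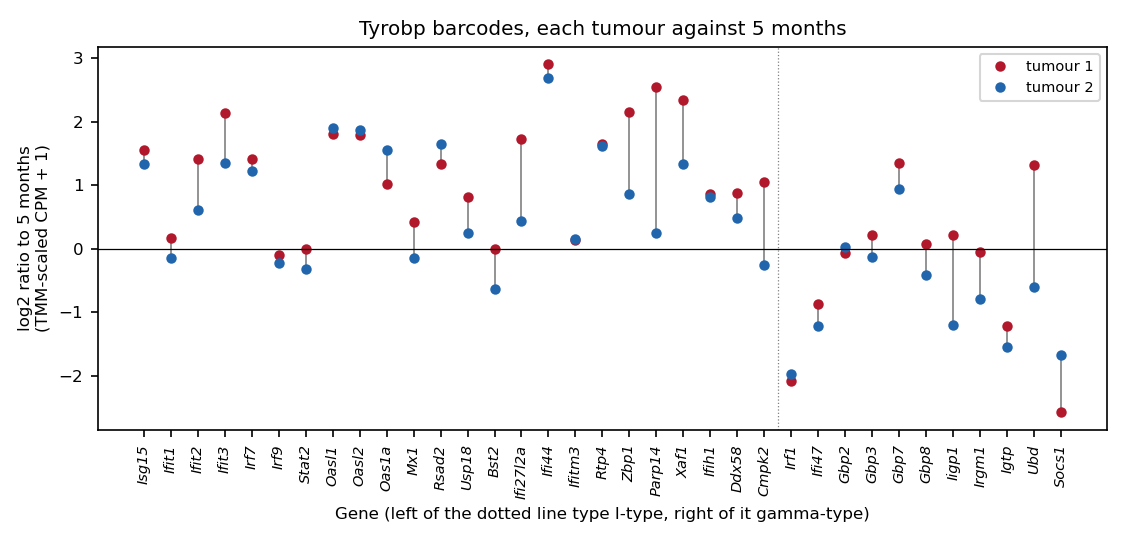
Log2 ratio of each tumour to the 5 months library in Tyrobp barcodes, from TMM-scaled CPM plus 1, for each member; a point is 1 tumour and the grey line joins both tumours. Most type I-type members lie above 0 in both tumours, and Irf1, Socs1, Igtp and Ifi47 lie below 0 in both.

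The Tyrobp class was made up differently in each library. Neutrophil markers summed to 2084 CPM in the 5 months library, to 1007 in tumour 1 and to 27789 in tumour 2, dendritic cell markers to 617, 26.2 and 59.3, and NK markers to 166, 3.86 and 18.1. Barcodes with 3 or more UMIs of the complement C1q genes, which are expressed by macrophages, numbered 162 of 813, 1912 of 2051 and 347 of 808. Within these barcodes the type I-type share without Ifitm3 was 0.0914% at 5 months, 0.275% in tumour 1 and 0.219% in tumour 2. In the Tyrobp barcodes below that count it was 0.113%, 0.140% and 0.113%, so 5 months and tumour 2 were level there. The difference between the subsets was not tested. Ifi27l2a had 224, 1197 and 605 CPM in the C1q barcodes.

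The tumour effect was compared directly between Tyrobp and keratin barcodes over the 5 months and tumour libraries. This fit had no term for the library, so both classes of a library entered as separate samples and their pairing was not used. edgeR called 0 of 35 members for a difference of effect and 0% of 12882 genes, at adjusted p from 0.783 upwards. At an unadjusted p under 0.05, 4 type I-type members differed (Ifi44, Oas1a, Oasl2 and Ifit3), with a more positive effect in Tyrobp barcodes. By that cut 3.76% of all genes had a more positive effect there and 1.78% a more negative one. With RLE size factors 0 members passed the adjusted threshold. In the order 5 months, tumour 1 and tumour 2, Oas1a had 9.72, 5.19 and 5.14 CPM in keratin barcodes and 7.11, 15.95 and 24.9 in Tyrobp barcodes. A large portion of the sequence words at the 3′ end of Oas1a (43.6%) also occur in its neighbour Oas1g, so reads of these copies may not be told apart. Ifit3 had 12.3, 6.92 and 1.80 in keratin barcodes and 3.26, 18.2 and 10.7 in Tyrobp barcodes. It shares 19.1% of such words with Ifit3b.

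In Cd3e barcodes, gamma-type members took a larger part of the sum than in the other classes at 5 months. Their share was 0.0494% at 5 months (1441 barcodes), 0.0150% in tumour 1 (24 barcodes, 23 UMIs) and 0.0378% in tumour 2 (137 barcodes). Type I-type members made up 0.0821%, 0.0965% and 0.165%. Socs1 had 129, 26.1 and 80.6 CPM, Igtp had 97.1, 26.1 and 47.8, and Irf1 had 86.3, 19.6 and 39.6. In these 3 genes 5 months was the highest and tumour 1, with few counts, the lowest. Ifi47 had 58.6, 13.0 and 56.0, Gbp7 had 14.2, 13.0 and 43.7, and Gbp3 had 21.1, 6.52 and 38.2.

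Of the type I-type members in Cd3e barcodes, Ifi27l2a stood at 341 CPM in the 5 months library, 215 in tumour 1 and 716 in tumour 2, and Ifitm3 had 118, 248 and 228. Bst2 had 91.1, 176 and 190, Irf7 had 25.4, 26.1 and 68.3, Isg15 had 60.9, 58.7 and 75.1, and Parp14 had 19.7, 111 and 36.9. By the 2-fold rule tumour 2 had 6 members above 5 months and 2 below, of 23, where 6.36% of genes were above and 7.9% below. The higher ones were 5 type I-type members and 1 gamma-type member. Against the 24 barcodes of tumour 1, tumour 2 had 13 members above (6 type I-type and 7 gamma-type) and 1 below, of 20, where 17.6% of genes were above and 11.1% below (28.7% in all). In a test added afterwards that kept the 24 barcodes of tumour 1, edgeR called 0 of 24 members in the tumours against 5 months, where 1.7% of 7137 genes were called (1.15% higher and 0.546% lower). At an unadjusted p under 0.05 there were 6 members, where 3.61% of genes were higher and 2.69% lower. Oasl2, Rsad2 and Parp14 were higher in the tumours, and Irf1, Igtp and Socs1 were lower. Macrophage and monocyte markers summed to 798, 5880 and 1888 CPM in these barcodes, and 105, 7 and 22 of them were also Tyrobp barcodes; with barcodes of more than 1 class left out, the 5 months shares were 0.0694% (type I-type) and 0.0522% (gamma-type).

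Classes were compared within libraries, with the library as a block, over the 5 months and tumour 2 libraries. These libraries of different stages served as replicates of the class difference. The p-values thus measure it against its variation between 1 premalignant library and 1 tumour. Tyrobp barcodes had 4 members higher and 1 lower than keratin barcodes, of 35, where 11.6% and 8.77% of 11341 genes were higher and lower (20.3% in all). Higher were Ifi27l2a (log2 fold change 2.87, SE 0.53, edgeR adjusted p = 0.0133), Mx1 (3.43, SE 0.75, adjusted p = 0.0236), Irgm1 (1.03, SE 0.29, adjusted p = 0.0471) and Gbp8 (4.62, SE 1.05, adjusted p = 0.0259). The Irgm1 call missed the threshold in 5 of 11 alternatives, against 2 for Mx1, 1 for Gbp8 and 0 for Ifi27l2a. Mx1, a dynamin-like GTPase with antiviral activity, had 6.81 and 6.66 CPM in Tyrobp and 1.27 and 0.257 in keratin barcodes. Gbp8 had 5.03 and 3.86 CPM in Tyrobp barcodes and a single UMI in keratin barcodes of both libraries. Lower was Ubd (-4.56, SE 0.61, adjusted p = 0.00462), with 1.48 and 0.701 CPM in Tyrobp barcodes. Mx1, Gbp8 and Ubd passed the filter on low counts only through classes other than the lower one. Their calls, and how often these held under alternatives, therefore add nothing to their values. When tumour 1 was kept, 8 members were higher and 1 lower, where 16% and 18.4% of genes were (34.4% in all). With tumour 1 in place of 5 months, 17 were higher and 1 lower, where 16.5% and 18.6% were. With tumour 1 in place of tumour 2, 3 were higher and 1 lower, where 11.1% and 9.65% were. The count of higher members thus differed with the libraries in the fit.

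Cd3e barcodes had 5 members higher and 2 lower than keratin barcodes, where 10.3% and 12.2% of genes were. The higher ones were Igtp (2.20, SE 0.36, edgeR adjusted p = 0.00899), Ifi27l2a (3.14, SE 0.54, adjusted p = 0.0108), Gbp8 (5.55, SE 1.04, adjusted p = 0.0137), Ifi47 (1.95, SE 0.38, adjusted p = 0.0152) and Socs1 (1.85, SE 0.42, adjusted p = 0.0247), 4 of them gamma-type. The lower ones were Ifitm3 (-1.97, SE 0.30, adjusted p = 0.00723) and Ubd (-3.64, SE 0.62, adjusted p = 0.0103). Gbp8 passed the filter only through the leukocyte classes, so its call adds nothing to its values. With tumour 1, which has 24 Cd3e barcodes, in place of tumour 2, 1 member was higher (Gbp8) and 6 were lower, where 7.02% and 8.67% of genes were, and the median log2 fold change of the members was -0.69 in place of -0.10. Between the leukocyte classes, Ifitm3 alone was called, higher in Tyrobp barcodes (2.40, SE 0.30, edgeR adjusted p = 0.0308), where 2.94% of genes were higher and 0.82% lower (3.76% in all). With tumour 1 kept, 4 members were higher and 1 lower, beside 6.84% and 3.19% of genes. Without the library block, 1, 3 and 0 members were called in the 3 comparisons, where 6.86%, 9.13% and 0% of genes were. Gbp8 shares 9.40% of its 3′ words with Gbp4, Gbp9 and Gbp10, and reads at the 3′ ends of Ifi47 and Igtp can fall on same-strand neighbours (Olfr56 and Irgm2).

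**Figure D5:**
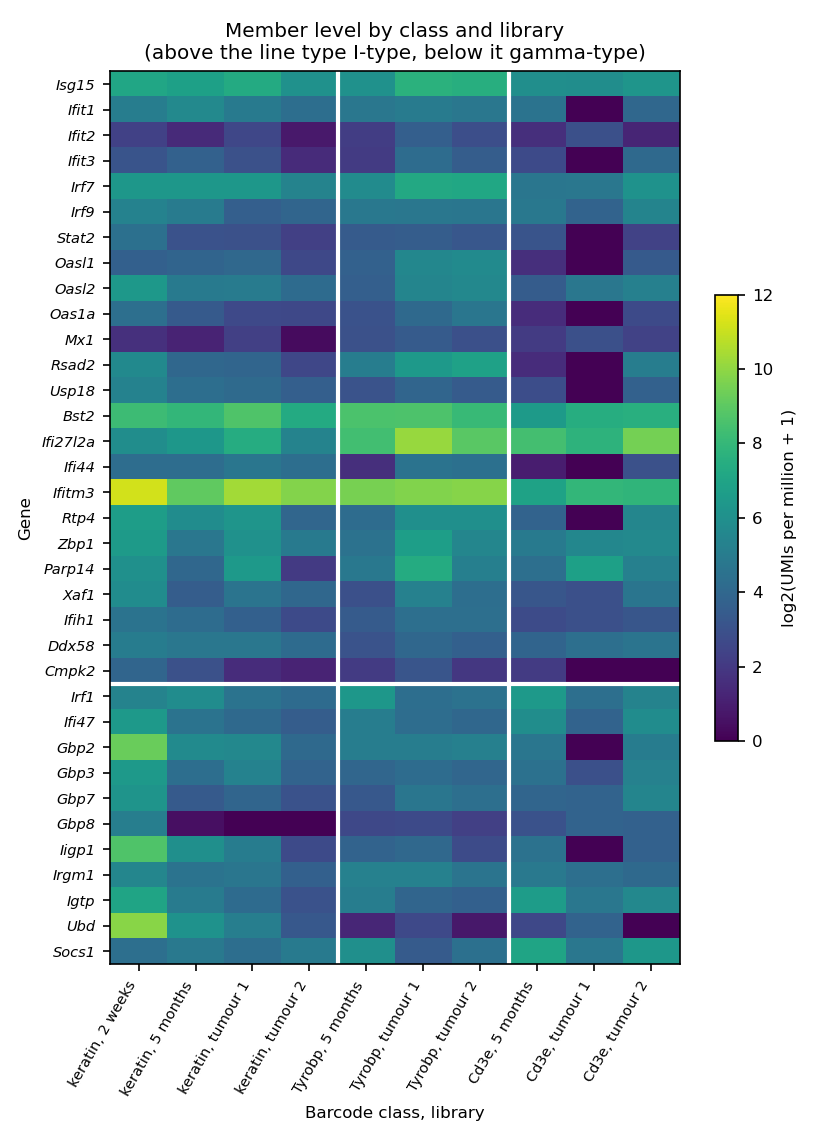
Level of each member as log2(CPM + 1), by gene (rows, type I-type above the white line and gamma-type below) and by class and library (columns); the Cd3e column of tumour 1 rests on 24 barcodes. Ubd, Gbp2 and Iigp1 are bright only in keratin barcodes at 2 weeks, Ifi27l2a is brightest in Tyrobp barcodes of tumour 1, and Ifitm3 is high in keratin and Tyrobp barcodes of every library.

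The ligands of the pathway were rare in these libraries. Ifng, interferon gamma itself, had 89 UMIs in Cd3e barcodes at 5 months (20.4 CPM), 5 in tumour 2 and 1 in tumour 1. In Tyrobp barcodes it had 43 UMIs at 5 months and none in either tumour, which is at least 91.3-fold higher at 5 months than 3 counts over both tumours. Of the 813 Tyrobp barcodes at 5 months, 105 were also Cd3e barcodes. NK markers summed to 166 CPM in the Tyrobp class at 5 months, 3.86 in tumour 1 and 18.1 in tumour 2. Which of its cells held Ifng was not tested. Keratin barcodes had 0 Ifng UMIs at 2 weeks and in the tumours and 1 at 5 months. Ifnb1, interferon beta, had 13 UMIs in Tyrobp barcodes of tumour 1 and 39 in those of tumour 2, and 0 at 5 months. A count of 0 at 5 months allows up to 0.888 CPM (3 counts), above the 0.823 CPM of tumour 1 and below the 6.84 CPM of tumour 2. Il12b, a subunit of interleukin 12, which induces interferon gamma, had 104 UMIs in Tyrobp barcodes at 5 months, 33 in tumour 1 and 4 in tumour 2. With no leukocyte class at 2 weeks, ligand levels beside the keratin barcodes of that library were not analysed here.

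Of the 9 receptors and kinases, 8 were detected in all 3 classes of the 5 months and tumour libraries. The other, Ifnlr1, a chain of the interferon lambda receptor, had no UMI in Cd3e barcodes and was at least 5.97-fold higher in keratin barcodes when 3 counts over the Cd3e barcodes of 5 months and tumour 2 are taken as the floor. Ifngr1, the binding chain of the interferon gamma receptor, had 30.5 CPM at 2 weeks, 52.4 at 5 months, 27.8 in tumour 1 and 44.9 in tumour 2 in keratin barcodes, and Ifnar1, a chain of the type I receptor, had 21.04, 19.9, 19.0 and 14.4. Ifngr1 was highest at 5 months, and Ifnar1 was highest at 2 weeks by a small margin. Of the 8 genes that passed the filter, which left out Ifnlr1, 6 were higher in Tyrobp than in keratin barcodes (11.6% of all genes were) and 5 were higher in Cd3e than in keratin barcodes (10.3%), with 0 lower in each. In the tumours against 2 weeks, 0 of 9 were called in keratin barcodes.

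Of 15 tested sensors and transcription factors, 6 were higher and 1 lower in Tyrobp than in keratin barcodes. Irf5 had 205 and 154 CPM in Tyrobp barcodes of the 5 months and tumour 2 libraries and 5.07 and 3.85 in keratin barcodes (5.52, SE 0.48, edgeR adjusted p = 0.00125). Irf8, a factor of myeloid cells, had 393 and 131 against 14.8 and 6.93 (4.68, SE 0.53, adjusted p = 0.00271). The one lower was Tlr3, a receptor for double-stranded RNA (-1.89, SE 0.50, adjusted p = 0.042). Tlr3 passed the filter only through keratin barcodes, and 4 of the 7 called sensors and factors passed only through classes other than the lower one. The calls of these 4 add nothing to their values. Of 9 tested feedback genes 4 were higher, and of 23 further targets 9 were higher, with 0 lower in both lists, where 11.6% of all genes were higher and 8.77% lower. Of the 9 targets, 3 passed the filter only through the leukocyte classes, so their calls add nothing to their values.

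Several further targets had their highest level in keratin barcodes at 2 weeks. Cxcl9, a chemokine for T cells that is induced by interferon gamma, had 610.5 CPM at 2 weeks, 13.9 at 5 months, 10.8 in tumour 1 and 1.03 in tumour 2. Cxcl10 had 292, 29.99, 114 and 35.2, so tumour 1 was again higher than 5 months. Ido1, a tryptophan-degrading enzyme, had 799 UMIs at 2 weeks (145 CPM), 4 at 5 months and none in either tumour, at least 523-fold higher at 2 weeks than 3 counts over both tumours. Of the 28 further targets tested in the tumours against 2 weeks, 2 were lower and 0 higher, where 0.54% of genes were lower, and the median log2 fold change of the 28 was -1.35. They were Ido1 (edgeR adjusted p = 0.0214) and Gbp4 (-5.41, SE 0.74, adjusted p = 0.0339). Both passed the filter on low counts only through the 2 weeks library, so their calls add nothing to their values. With RLE size factors Ido1 alone was called (edgeR adjusted p = 0.0411), and with the filter of 500 genes and 10% mitochondrial UMIs per barcode neither was.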

How the data were processed

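The deposited UMI counts per gene and barcode were used. Per the submitters' processing notes the authors used Cell Ranger with mm10 (GRCm38), of a version not given in the sources. Per the labels' protocols, the 10x Chromium 3' v2 chemistry was used. The members, marker cuts and pathway lists were chosen with earlier results of these data known. The 4 libraries held 6722044, 15060411, 23736366 and 13061942 UMIs, and the 27998 genes common to all were kept. No filter was set on barcodes in the main values, and doublets were not called: barcodes in more than 1 class were kept, and left out in an alternative.

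Counts were summed per class and library and given as CPM of the class total. Group tests used edgeR 4.0.16 (R 4.3.3; filterByExpr, TMM, quasi-likelihood F test, Benjamini-Hochberg over all genes, 0.05), for classes with at least 30 barcodes, and keratin libraries shared 1 fit. The labels do not say that the tumours came from separate mice, so p-values measure the spread between these samples. The planned test of the tumours in Cd3e barcodes could not be fitted with 24 barcodes in tumour 1. The scripts were tested on simulated counts. Members were named when among the 6 highest of their type in a class, or when called; others are given as counts or ranges, and further genes named were chosen after their values were seen. DESeq2 1.42.0, other scalings, filters and class cuts were alternatives. One pathway gene is not reported here.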

Additional observations from a re-analysis of the deposited data

How the results depend on the processing

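The counts of members past 2-fold were within 1.5 times under 65 of 67 alternatives. The others were in hormone-leaning barcodes, for each tumour against 5 months. Tumour 1 had 13 of 25 members there (49.5% of all genes) and 8 of 23 over the whole class (27.6%). Tumour 2 had 6 of 14 (44.5%) and 11 of 19 over the whole class (20.1%). The members called changed more. Percentages in brackets are the shares of all genes called. In the tumours against 2 weeks the main test called 2 members (1.08%), and every member called there was lower. RLE size factors gave 0 (0.379%) and the barcode filter 0 (0%). Library size scaling alone gave 9 (5.62%) and no filter on low counts 9 (7.02%). DESeq2 gave 5 (4.82%), barcodes of 1 class only 7 (2.41%) and stricter classes 5 (3.67%). Progenitor-leaning barcodes gave 5 (0.507%), and leaving out the 5 months library gave 5 (2.80%). In Tyrobp barcodes against 5 months (0 members, 0%), no filter gave 13 (10 higher and 3 lower, beside 3.51% and 2.98% of genes). DESeq2 gave 2 there (2.32%). Tyrobp against keratin (5 members, 20.3%) gave 8 with no filter (16.5%) and 9 with tumour 1 kept (34.4%). With tumour 1 in place of 5 months it gave 18 (17 higher and 1 lower, beside 16.5% and 18.6% of genes). Cd3e against keratin (7 members, 5 of them higher, 22.4%) gave 11 with no filter (18.2%). With tumour 1 in place of tumour 2 it gave 7 (15.7%), of which 1 was higher and 6 lower. Tyrobp against Cd3e (1 member, 3.76%) gave 2 with library size scaling (3.32%), 7 with no filter (5.98%) and 2 with DESeq2 (6.76%). Barcodes of 1 class gave 5 (10.4%) and stricter classes 3 (6.85%). It gave 5 with tumour 1 kept (10.0%), 8 with tumour 1 in place of 5 months (9.39%) and 4 with tumour 1 in place of tumour 2 (2.68%). The cause was not tested. Library size scaling moved the median log2 change of all genes from 0.06 to 0.18 (Tyrobp, tumours against 5 months) and from -0.11 to -0.27 (Tyrobp against keratin). With no replicate block for the library the 3 class comparisons gave 1 (6.86%), 3 (9.1%) and 0 (0%). No paired analysis was possible because, between the tumours and the premalignant libraries, the groups share fewer than 2 replicate numbers. The 3 class comparisons were paired by library in the main fits, but the fit for the difference of the tumour effect between classes was not. Leaving out a tumour leaves no residual degree of freedom in the main fits, and those alternatives were not run. Of 161 refits of single called members 139 kept the call, 22 missed the threshold and 0 reversed.

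Of 80 recomputed shares of UMIs 67 stayed within their spread. For 2 weeks and 5 months that spread was the Poisson interval, and for the tumours it was the wider SD between both tumours. The tumour shares were thus held to a looser limit, and the 13 that moved were all at 2 weeks or 5 months. At 5 months, barcodes of 1 class gave type I-type shares of 0.192% (Tyrobp) and 0.0694% (Cd3e) and a gamma-type share of 0.0522% (Cd3e). Stricter classes gave type I-type shares of 0.131% (keratin) and 0.201% (Tyrobp), and gamma-type shares of 0.0341% (keratin), 0.0290% (Tyrobp) and 0.0444% (Cd3e). The mean over barcodes gave type I-type shares of 0.225% (Tyrobp) and 0.0739% (Cd3e), gamma-type shares of 0.0352% (Tyrobp) and 0.0564% (Cd3e), and 0.253% for gamma-type members in keratin barcodes at 2 weeks. Thinned to 1000 UMIs, the shares of barcodes that moved were in keratin barcodes 55.2% (2 weeks) and 17.1% (5 months) for type I-type members, and 28.9% (2 weeks) and 3.18% (5 months) for gamma-type members. In Tyrobp barcodes 29.8% (5 months), 45.1% (tumour 1) and 34.5% (tumour 2) for type I-type members, and 2.34% (5 months), 0.926% (tumour 1) and 1.11% (tumour 2) for gamma-type members were found. In Cd3e barcodes 6.94% (5 months), 8.33% (tumour 1) and 21.2% (tumour 2) for type I-type members, and 4.79% (5 months) for gamma-type members were found. Without thinning, the shares of barcodes that moved were in keratin barcodes 89.5% (2 weeks), 54.7% (5 months), 97.1% (tumour 1) and 76.7% (tumour 2) for type I-type members, and 56.1% (2 weeks), 18.3% (5 months), 42.4% (tumour 1) and 13.8% (tumour 2) for gamma-type members. In Tyrobp barcodes 58.1% (5 months), 93.0% (tumour 1) and 86.3% (tumour 2) for type I-type members, and 17.2% (5 months), 17.6% (tumour 1) and 12.01% (tumour 2) for gamma-type members were found. In Cd3e barcodes 25.1% (5 months), 75% (tumour 1) and 59.9% (tumour 2) for type I-type members, and 20.6% (5 months), 12.5% (tumour 1) and 29.2% (tumour 2) for gamma-type members were found. With a minimum of 5 member UMIs, the shares of barcodes that moved were in keratin barcodes 47.9% (2 weeks), 14.0% (5 months), 32.7% (tumour 1) and 13.5% (tumour 2) for type I-type members, and 26.1% (2 weeks), 1.22% (5 months) and 0.907% (tumour 1) for gamma-type members. In Tyrobp barcodes 25.7% (5 months), 40.9% (tumour 1) and 29.0% (tumour 2) for type I-type members, and 1.3% (5 months), 0.195% (tumour 1) and 0.619% (tumour 2) for gamma-type members were found. In Cd3e barcodes 4.69% (5 months), 8.33% (tumour 1) and 12.4% (tumour 2) for type I-type members, and 2.14% (5 months) and 1.46% (tumour 2) for gamma-type members were found. Depth limits the Cd3e values of tumour 1 and members with few UMIs.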

Other observations

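Some barcodes fell in none of the 3 classes: 211 at 2 weeks, 2207 at 5 months, 277 in tumour 1 and 476 in tumour 2. Their type I-type share was 0.147%, 0.0681%, 0.266% and 0.137% of UMIs, and their gamma-type share was 0.0442%, 0.0495%, 0.0289% and 0.0197%. At 2 weeks the gamma-type share of these barcodes was thus well below the 0.249% of the keratin barcodes of the same library. The 46 keratin barcodes of the 2 weeks library in which neither progenitor nor hormone-sensing genes led had a gamma-type share of 0.566%. The 5 Tyrobp barcodes of the 2 weeks library held 32 type I-type and 19 gamma-type UMIs, of which Iigp1 supplied 36.8%. Its 3 Cd3e barcodes held 44 and 2. Keratin barcodes of tumour 1 without an Epcam UMI (60 of 441) had a type I-type share of 0.140%, against 0.274% in the other 381, while their gamma-type shares were 0.0260% and 0.0267%.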
